A study of Drosophila melanogaster with 4 samples.

Results

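Isolated H3K36me2 regions are short stretches of enriched chromatin that stand alone on the large autosomal arms of *Drosophila melanogaster*. They were chosen from the authors' combined list of enriched regions, as regions on 2L, 2R, 3L or 3R narrower than 10 kb with at least 10 kb free of any other listed region on both sides, leaving out the first and last region of each arm. This gave 406 regions, out of 3200 on the autosomal arms and 4311 in the whole list. Width, position and gaps in the combined list therefore chose these regions and are given as a description. The material was wild-type Oregon-R embryos, the strain listed as Oregon-R-modENCODE, staged at 14 to 16 hours and cross-linked with 1.8% formaldehyde. Whole embryos hold many cell types, so a region may be marked in all or in some of them. The series has 2 ChIP samples, made with an antibody labelled H3K36me2 W, and 2 input samples of the same strain, stage and genotype. Each ChIP sample has its own list of enriched regions, and the combined list is the authors' value for both.

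Histone H3 can carry methyl groups on lysine 36. In *Drosophila*, Ash1, a trithorax-group protein, and the NSD-family enzyme Mes-4 place the dimethyl form, and Set2, which travels with elongating RNA polymerase II, makes the trimethyl form over transcribed genes. Nucleosomes methylated at this lysine are poor substrates for the Polycomb enzyme that methylates lysine 27, so the mark is known for keeping Polycomb silencing out of active chromatin.

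Coordinates below are on FlyBase release 5, the build named in the file headers. No annotation or genome sequence of that build was used here, so the genes, exons and DNA sequences under the regions are not given. The lists hold no read counts, so depth is unknown. Each region carries the authors' own score, for which the labels and headers state neither scale, log base nor relation to input. A region is called held by a replicate when a region of that replicate's list overlaps it by at least 1 base, and its replicate value is that of the region with the longest overlap. The labels do not state whether separate embryo collections were used, so differences between replicates may be technical. The combined list may have been built from the replicates, and 2 replicates cannot give a two-sided exact p below 0.5. All comparisons below are therefore descriptions with their spread, and none was tested.

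Isolated regions were a minority of the autosomal regions and held little of the enriched sequence. They made up 12.7% of the autosomal regions (Wilson 95% interval 11.6 to 13.9), and covered 1.79 Mb, which was 7.85% of the enriched bases of these arms. Wide regions of 10 kb or more numbered 735 and held 52.6% of the enriched bases. The 2051 closely spaced regions, which are under 10 kb with a neighbour nearer than 10 kb on at least one side, held 39.4%. When regions separated by less than 10 kb were counted as 1 place, the arms had 1259 enriched places, of which 525 consisted of a single region. Of these single regions 408 were under 10 kb, 2 of them being first or last on an arm, and 117 were wider.

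The isolated regions spanned the whole allowed range of width. The narrowest was 1001 bp, the median 3934 bp and the widest 9975 bp. In the combined list the lowest score was 0.0343, the median 0.931 and the highest 3.30. The median score was 0.959 for closely spaced regions and 1.74 for wide ones, so short regions scored about alike whether or not they had a near neighbour, and below the wide ones.

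Regions close to each limit of the choice, 2 on each side, had overlapping ranges of combined score. The widest isolated regions, just inside the width limit, were 2R 4307906 to 4317880, of 9975 bp with a combined score of 1.67, and 3L 24022032 to 24031988, which measured 9957 bp and scored 1.44. Outside it, 2 regions with gaps of at least 10 kb on both sides were taken, although wide regions began at 10003 bp. These were 3L 8879332 to 8889400, which measured 10069 bp and scored 1.69, and 2L 17365820 to 17375952, which measured 10133 bp and scored 1.36. Just inside the gap limit were 3R 22380276 to 22381874, 10003 bp from its nearer neighbour, and 2R 12532760 to 12534764, 10039 bp from it. These scored 0.353 and 0.467, and replicate 2 alone held the first while neither replicate held the second. Just outside were 2L 82682 to 84688, with a gap of 9899 bp and a score of 0.373, and 3L 17442680 to 17446588, 9807 bp from its nearer neighbour and scoring 0.599. In contrast to those just inside, both replicates held each of these.

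The strongest isolated regions were similar in both replicates, with the exception of the highest score. That score, 3.30, belonged to 2R 6480626 to 6481626, of 1001 bp, the narrowest width in the combined list. Neither replicate held a region there. The highest score of closely spaced regions, in the class under 2.5 kb, was the identical 3.30167, and why they tie is unknown. The 1001 bp region was also the highest isolated region on 2R. The next, and the highest on 3L, was 3L 18795700 to 18803326, of 7627 bp, which scored 2.83 in the combined list, against 2.87 and 2.82 in replicates 1 and 2. On 3R the highest was 7171188 to 7177718, of 6531 bp, scoring 2.49 in the combined list and 2.54 and 2.46 in the replicates. On 2L it was 12012888 to 12021494, of 8607 bp, scoring 2.44 in the combined list and 2.46 and 2.48 in the replicates. The 5 highest were completed by 2R 4546582 to 4553114, of 6533 bp, with 2.38, 2.42 and 2.38 in the same order. These 4 regions held by both replicates were thus 6531 to 8607 bp wide, and each one's replicate scores lay within 0.0804 of each other.

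The 5 widest isolated regions differed in score, and 4 of them lay above the replicate medians of 1.12 and 1.13. The widest isolated region, 2R 4307906 to 4317880, scored 1.65 in replicate 1 and 1.71 in replicate 2. The second, 3L 24022032 to 24031988, scored 1.51 and 1.39. The third, 2L 9758706 to 9768654, of 9949 bp, scored 1.45 and 1.42. The fourth, 2R 3586480 to 3596366, of 9887 bp, scored 2.38 and 2.41, and the fifth, 3R 5154660 to 5164410, of 9751 bp, scored only 1.06 and 0.995. The last was a pair of shorter regions in each replicate, the longer being 5950 bp in replicate 1 and 5608 bp in replicate 2. The last 2 of these set the range of the scores, while 3L 24022032 to 24031988 and 2L 9758706 to 9768654 differed from each other by less than the replicates did on the former.

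Score followed width, and at matched width isolated and closely spaced regions had nearly the same median score. Across the 332 isolated regions held by both replicates, Spearman's correlation of width with score was 0.688 in replicate 1 and 0.698 in replicate 2. Regions are not independent replicates and a score may be computed over a region's width, so no p is given. Isolated regions under 2.5 kb had a median score of 0.584 ± 0.00123 (SD, n = 2 replicates), those of 2.5 to 5 kb 1.04 ± 0.0274 and those of 5 to 10 kb 1.48 ± 0.0311. The same classes of closely spaced regions had 0.565 ± 0.00614, 1.05 ± 0.0170 and 1.48 ± 0.0102. Isolated minus closely spaced, the difference was 0.0189 ± 0.00738 in the narrowest class, -0.00682 ± 0.0444 in the middle class and 0.00489 ± 0.0209 in the widest (SD, n = 2). In the middle and widest classes the replicates gave opposite signs, and in the narrowest class both were above 0, at 0.0241 and 0.0137. The spread between single regions was far greater: in replicate 1 the central part of the middle class, between its quartiles, ran from 0.847 to 1.30 for isolated regions and from 0.814 to 1.34 for closely spaced ones.

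**Figure D1:**
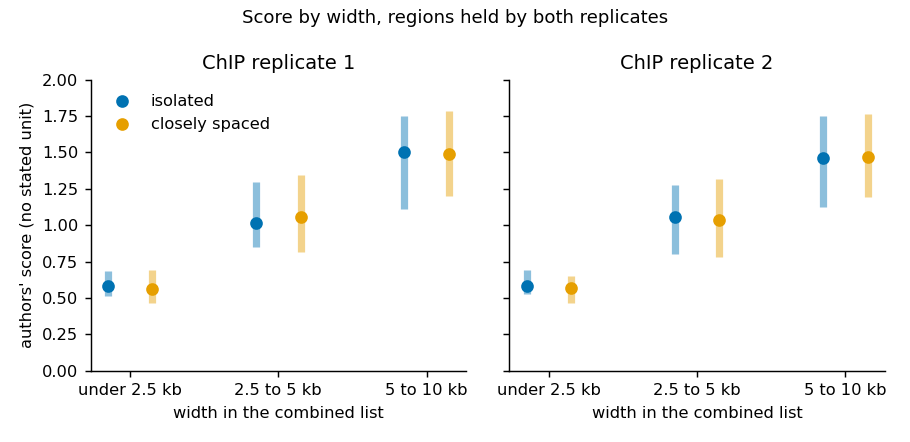
Authors' score (vertical axis, no stated unit) of autosomal regions held by both replicates, by width in the combined list and by ChIP replicate. Points are medians over regions and bars run from the lower to the upper quartile. Isolated and closely spaced regions of the same width class sit at nearly the same level, for example 1.51 and 1.49 for 5 to 10 kb in replicate 1.

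Most isolated regions were held by both replicates, and those that were not were nearly all narrow. Both replicates held 332 of 406, or 81.8% (Wilson 95% interval 77.7 to 85.2), against 87.0% of all autosomal regions and 83.4% (81.8 to 85.0) of closely spaced ones. Replicate 1 alone held 32 and replicate 2 alone 16, while 26 (6.40%) were in neither. The share in neither was 6.69% for all autosomal regions and 9.17% for closely spaced ones. Of the isolated regions of 5 to 10 kb, both replicates held all 143 (100%, 97.4 to 100). Of those of 2.5 to 5 kb they held 146 of 156 (93.6%, 88.6 to 96.5), and of those under 2.5 kb 43 of 107 (40.2%, 31.4 to 49.7). For closely spaced regions the shares of these 3 classes were 100%, 97.8% (96.5 to 98.6) and 43.8% (39.8 to 47.8). The intervals of isolated and closely spaced regions overlapped in each class, in the middle one only just (96.481 against 96.474). Overlap of intervals does not show that the shares are alike. These intervals cover counting error only and treat regions as independent. With an overlap of 1 base, a closely spaced region can also be held by a replicate region that mainly covers its neighbour. Among one-to-one pairs under 2.5 kb, boundaries differed by up to 10539 bp for closely spaced regions and 948 bp for isolated ones.

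Recovery also went with score. In the lowest of 5 equal score groups, from 0.0343 to 0.468, both replicates held 23 of 82 isolated regions (28.05%, 19.5 to 38.6). In the next group, up to 0.776, they held 68 of 81 (84.0%, 74.5 to 90.4). In the 3 higher groups only 2 regions were not held by both, 1 of them the 1001 bp region with the highest score.

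**Figure D2:**
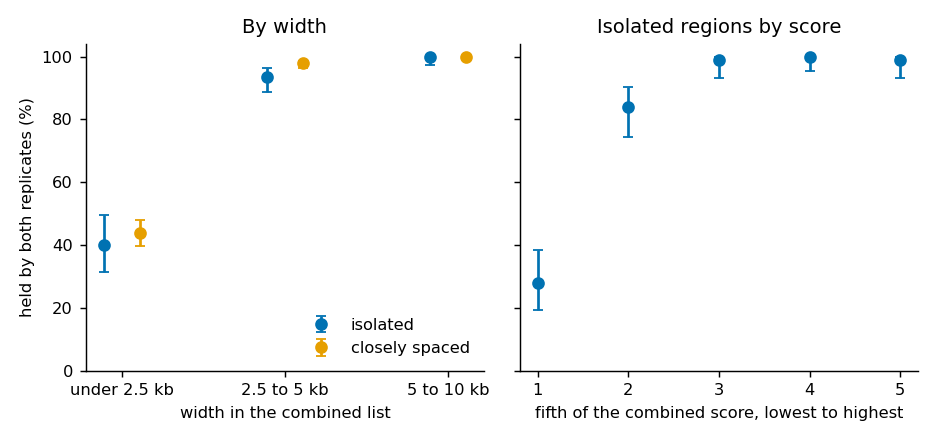
Share of regions that both ChIP replicates held (vertical axis, percent), with Wilson 95% intervals. The left panel sets isolated beside closely spaced regions by width in the combined list, and the right panel gives isolated regions by score group from lowest (1) to highest (5), where the share climbs from 28.05% to 84.0% and then nearly to 100%.

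The 26 isolated regions in neither replicate were typically 1384 bp wide, with a typical combined score of 0.417 (medians). The narrowest region of any replicate list was 1301 bp wide, and 9 of the 26 were narrower than that. The widest was 2R 20262432 to 20265170, of 2739 bp, with a combined score of 0.442 and a nearer neighbour 13195 bp away. Next came 2R 12532760 to 12534764, of 2005 bp, with a score of 0.467. 3L 10584482 to 10586470, of 1989 bp, scored 0.335. On 3R, 26185886 to 26187752, of 1867 bp, scored 0.531, and 27186456 to 27188280, of 1825 bp, scored 0.367. All 5 lay well under the median of 0.931 for isolated regions of all widths. All but the widest were under 2.5 kb, a class with a median combined score of 0.428. The 5 scores lay on both sides of that value.

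Where a single region of each replicate met an isolated region, the replicates gave it nearly the same place and score. This was so for 313 of the 332 isolated regions held by both replicates. Among these pairs the boundaries differed by a median of 85 bp, with 90 percent of the 626 boundaries within 336 bp, and 4 boundaries were identical. The largest boundary difference was 1431 bp. Pearson's correlation of the 2 scores across pairs was 0.971 and Spearman's 0.965, and within the class under 2.5 kb, where scores span little, 0.743 and 0.582. The median absolute score difference was 0.0764. It was under 0.1 in 198 pairs (63.3%) and 0.2 or more in 29. The 19 regions split in a replicate are not among these pairs. Their longest pieces scored from nearly alike, 0.875 and 0.878 at 2L 2812892 to 2821070, to far apart. The farthest apart were 0.805 and 1.39, at 2L 3290686 to 3298428, a greater difference than in any pair. Replicate 1 drew the region wider in 206 of the 313 pairs (65.8%), whereas the score was higher in replicate 1 in 167 (53.4%). Here the replicates thus differed in width more one-sidedly than in score. Replicate 1 was wider in 70.4% and higher in 57.8% of closely spaced pairs, and in 71.7% and 73.3% of wide pairs. Closely spaced pairs also had a similar median boundary difference, 83 bp, and Pearson's correlation, 0.971.

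**Figure D3:**
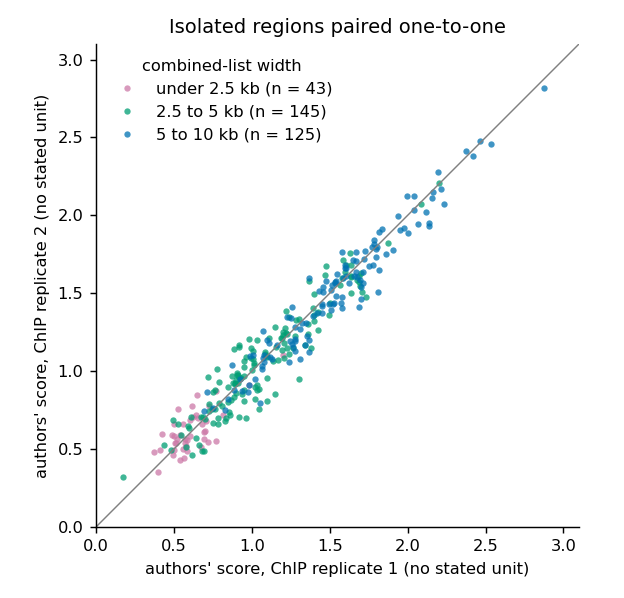
Authors' score of the 313 isolated regions paired one-to-one, in ChIP replicate 1 (horizontal axis) and ChIP replicate 2 (vertical axis), neither with a stated unit. Each point is a region, colours give its width in the combined list, and the line marks equal scores. Points lie along the line, with the narrowest regions at the low end and the region at 2.87 and 2.82 at the top.

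The 5 one-to-one pairs whose scores differed most were all higher in replicate 1. The greatest difference was at 2R 14424288 to 14427300, with 1.30 in replicate 1 and 0.951 in replicate 2. The next were 2L 9570618 to 9577032, with 1.81 and 1.51, and 3R 10558568 to 10562098, with 1.15 and 0.856. On 3L, 10975030 to 10978344 had 1.04 and 0.754, and 17946114 to 17949718 had 1.10 and 0.807. Of these only the 2L region was over 5 kb. At the other end, 3L 3985840 to 3989022 had 1.10 in both replicates, 3R 25933792 to 25940114 had 1.72 in both, and 3R 19531108 to 19533336 had 0.568 and 0.565.

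The combined list drew these regions slightly wider and with slightly lower scores than the replicates did, as it did for the other autosomal regions. A region in pieces in a replicate enters with its longest piece only, which adds to the difference in width. Among the 332 held by both, it was wider than either replicate region in 281 (84.6%), with a median of 4563 bp against 4364 bp in replicate 1 and 4095.5 bp in replicate 2. Its score was below both replicate scores in 189 (56.9%), with a median of 1.09 against 1.12 and 1.13, although the scale of the scores is not stated. For closely spaced regions held by both, the medians were 4517 bp against 4182 and 3984 bp, and 1.10 against 1.17 and 1.15. For wide regions they were 14131 bp against 13393 and 13142 bp, and 1.74 against 1.80 and 1.77.

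A minority of isolated regions came apart in a replicate. There were 19 that met more than 1 region in at least 1 replicate, 11 of them in replicate 1, 15 in replicate 2 and 7 in both. All but 1 were 5 to 10 kb wide, which is 12.6% of that class, against 14.5% for closely spaced regions of that width and 31.7% for wide regions. The most fragmented were 3L 9958210 to 9967372, in 3 pieces in replicate 1 and 2 in replicate 2, and 2L 10619816 to 10628050 and 2R 5876744 to 5885828, each in 2 pieces in replicate 1 and 3 in replicate 2. These 3 were chosen after their values were seen.

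Isolated regions that a replicate held were nearly always isolated in its own list too, which the choice largely fixed in advance. Within 10 kb of their edges, at most 0.128% of the bases in any 5 kb bin were enriched in a replicate list. Little but splitting could therefore end their isolation. Of the 364 isolated regions that replicate 1 held, 352 (96.7%, Wilson 94.3 to 98.1) were isolated in that replicate's own list by the same rule. In replicate 2 the number was 332 of 348 (95.4%, 92.7 to 97.2). The exceptions numbered 12 and 16, of which 11 and 15 had been split into pieces. In all, 312 of the 406 regions (76.8%, 72.5 to 80.7) were isolated in all 3 lists. These had median scores of 1.15 in replicate 1 and 1.14 in replicate 2. Applied to a replicate list alone, the rule gave 412 regions in each replicate. Of these 85.4% in replicate 1 and 80.6% in replicate 2 belonged to an isolated region of the combined list, and most of the others, 59 and 76, belonged to a closely spaced one.

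Regions farther from their neighbours scored and recurred much like those just past the gap limit. The nearer gap had a median of 20.9 kb and the farther a median of 54.8 kb. The nearer gap was 10 to 20 kb for 194 regions, 20 to 50 kb for 152 and 50 kb or more for 60. Both replicates held 81.4% (75.4 to 86.3), 80.9% (73.9 to 86.4) and 85.0% (73.9 to 91.9) of these groups. The median replicate scores were 1.13 ± 0.0276, 1.15 ± 0.0130 and 1.09 ± 0.0127 (SD, n = 2). Spearman's correlation of the nearer gap with the score was 0.00795 in replicate 1 and -0.0155 in replicate 2 across the 332 regions.

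The most isolated region of all was 3L 10211046 to 10218340, of 7295 bp, with 244 kb free of listed regions before it and 233 kb after it. It was found in both replicates, at 7149 bp with a score of 1.27 in replicate 1 and 7073 bp with a score of 1.28 in replicate 2. The second was 2R 4307906 to 4317880, also the widest isolated region, whose nearer gap was 163 kb. The third, 3R 12635114 to 12637200, of 2087 bp, had a nearer gap of 154 kb and low scores of 0.574 and 0.519. 3L 24224070 to 24228028, of 3959 bp with a gap of 145 kb, scored 0.883 and 0.834. 2R 15716082 to 15719602, of 3521 bp with a gap of 141 kb, scored 0.991 and 1.08. Both replicates held all 5, and their scores ranged from low to above the median.

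Beyond the empty flanks that the rule requires, enrichment around isolated regions went from well below to near the average of these arms. In the replicate lists, 7.06% ± 0.273 of the bases at 10 to 15 kb from their edges were enriched (SD, n = 2), and 13.8% ± 0.545 at 15 to 20 kb. At 30 to 35 kb the value was 21.3% ± 0.291 and at 35 to 40 kb it was highest, at 23.1% ± 0.401, against 22.3% ± 0.422 for the autosomal arms as a whole. Farther out it lay between 19.9% and 22.4%, below the arm level in 10 of the 12 bins from 40 to 100 kb. From 50 to 100 kb the mean was 21.3% ± 0.408. At that distance it was 24.7% ± 0.455 around closely spaced regions and 26.1% ± 0.436 around wide ones. In each replicate the order was the same, with 21.6%, 25.03% and 26.4% in replicate 1 and 21.0%, 24.4% and 25.8% in replicate 2. Because the choice of regions by their gaps also shapes the nearer flanks, the values within about 30 kb partly restate the rule. That choice may shape the farther flanks too. Regions of the same place, up to 32 of them, count much the same surroundings repeatedly. The order at 50 to 100 kb is therefore a description and was not tested. Its SDs are over the 2 replicate lists and do not measure spread over regions. For 64 of the 406 isolated regions (15.8%) neither replicate had an enriched base between 10 and 50 kb away on either side, against 2.29% of closely spaced and 2.72% of wide regions.

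**Figure D4:**
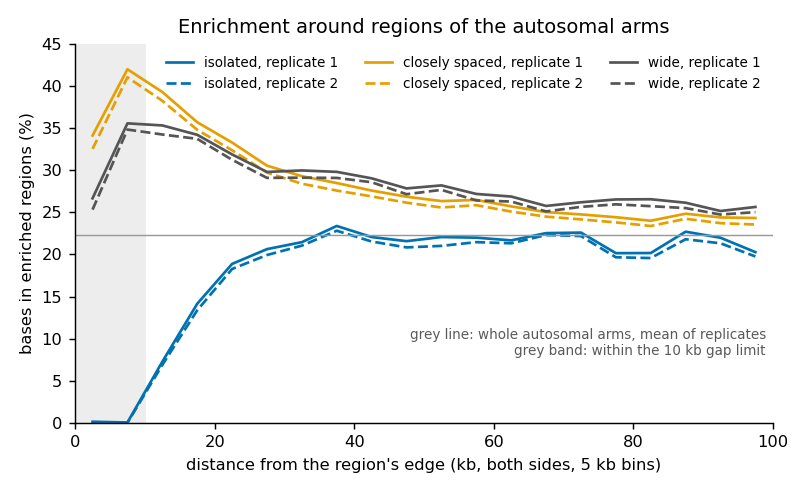
Mean share of bases in enriched regions of each ChIP replicate (vertical axis, percent) by distance from the edge of isolated, closely spaced and wide autosomal regions, both sides together in bins of 5 kb. Solid lines are replicate 1 and dashed lines replicate 2. Around isolated regions the share is near 0 within 10 kb, as the rule demands. It peaks at 23.1% at 35 to 40 kb and then lies mostly just under the 22.3% of the whole arms, while around the other regions it lies above that level throughout.

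Isolated regions often followed one another. Of the 406, 250 (61.6%) had another isolated region as a direct neighbour, in 102 runs. Among the 812 flanking regions 36.5% were isolated, 44.2% closely spaced and 19.2% wide, whereas all autosomal regions were 12.7% isolated, 64.1% closely spaced and 23.0% wide. The excess over 12.7% follows at least in part from the rule, since a region's neighbour shares its gap of at least 10 kb. That neighbour thus always belongs to another place, and isolated regions made up 32.2% of the 1259 places, near the 36.5%. A region between 2 isolated ones is counted for each of them. Whether isolated regions follow one another more often than places in random order would was not tested. The longest runs held 5 regions, and there were 4 of them. The sparsest was 3L 24022032 to 24502384, where 5 regions in 480 kb left 4.11% of the sequence enriched, with combined scores from 0.227 to 1.44. 3L 9958210 to 10586470, with 5 regions in 628 kb and 4.16% enriched, contains the most isolated region. The run at 3R 11235870 to 11514782 was stronger, with 5 regions in 279 kb, a median score of 1.44 and 12.1% enriched, and both replicates held 4 of them. The fourth was 2R 2902998 to 3132514, with 5 regions in 229.5 kb, all held by both replicates, and a median score of 0.886. The runs were chosen for their length after the values were seen.

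The 4 arms carried isolated regions at similar density. There were 92 on 2L, 89 on 2R, 103 on 3L and 122 on 3R. Per megabase this was 4.00 on 2L (exact Poisson 95% interval 3.22 to 4.90), 4.21 on 2R (3.38 to 5.18), 4.20 on 3L (3.43 to 5.09) and 4.37 on 3R (3.63 to 5.22), so all intervals overlapped. As a share of each arm's regions, 2R had the lowest value, 10.9% (Wilson 8.92 to 13.2), and 3R the highest, 13.6% (11.5 to 16.0). Median replicate scores were 1.01 ± 0.0290 on 2L, 1.15 ± 0.000686 on 2R, 1.09 ± 0.00923 on 3L and 1.21 ± 0.0452 on 3R (SD, n = 2). The 2L value was the lowest in both replicates, at 0.988 and 1.03, and the 3R value the highest in both, at 1.24 and 1.18.

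Along the arms, isolated regions took their smallest share next to the centromere. When each arm was cut into 5 equal segments from the centromere end of the assembled sequence, the first held 70 isolated regions, or 9.93% of its regions (Wilson 7.93 to 12.4). The second held 85 (14.8%, 12.1 to 17.9), the third 99 (15.8%, 13.1 to 18.8), the fourth 71 (11.0%, 8.79 to 13.6) and the outermost 81 (12.6%, 10.2 to 15.3). The interval of the first segment lay below that of the third and overlapped the others. By density the first segment was little different from the fourth, with 3.62 and 3.67 isolated regions per Mb, against 5.12 in the third. The first segment also held the most autosomal regions of all kinds, 705 against 575 to 647 in the others, which lowers its share. The median combined score was lowest in the first segment, at 0.816, and highest in the third, at 1.13, and the median width was 3340 bp in the first and 4433 bp in the third.

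**Figure D5:**
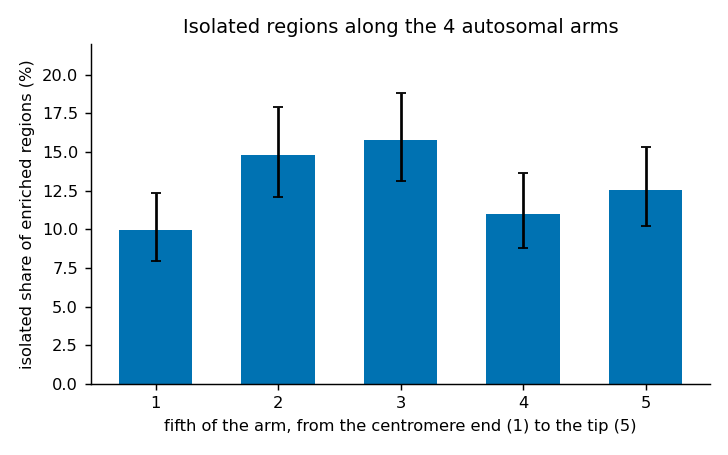
Isolated regions as a share of all enriched regions (vertical axis, percent, with Wilson 95% intervals) in 5 equal segments of the autosomal arms, from the centromere end (1) to the tip (5) of all 4 arms. The share is lowest in segment 1, at 9.93%, and highest in segment 3, at 15.8%.

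Isolated regions were spread over all 4 arms, with stretches of up to 1.57 Mb between them. Each of the 95 whole windows of 1 Mb held between 1 and 10 of them, with a median of 4 and quartiles of 3 and 6. Closely spaced regions in the same windows numbered 6 to 38, with a median of 21. The fullest window was 3R 11000001 to 12000000, with 10 isolated regions, followed by 2L 9000001 to 10000000 and 2R 6000001 to 7000000, with 9 each. They are named because of these counts and not by a prior rule. Between one isolated region and the next, 9 stretches were 1 Mb or longer, even though every fixed window held at least 1. The longest were 2R 1333291 to 2902997, of 1.57 Mb, and 3L 4632073 to 5920441, of 1.29 Mb.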

How the data were processed

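Per the submitters' processing notes, reads were aligned with Bowtie 0.12.7. Per the file headers, coordinates are on FlyBase release 5. The authors deposited lists of enriched regions with a score per region for ChIP replicate 1, ChIP replicate 2 and the whole series. The region caller, its threshold, the way the combined list was made and the scale of the score are stated in neither labels nor headers. Input files were not analysed here. The labels cross the numbers: the list of ChIP replicate 1 was made with input replicate 2, and that of ChIP replicate 2 with input replicate 1. Depth is unknown.

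Starts and ends were read as 1-based. A gap is the number of bases between neighbouring regions of a list. Overlap was at least 1 base. Flank coverage counted the bases of the replicate lists beyond each edge. Shares carry Wilson intervals and densities exact Poisson intervals, all at 95%, which cover counting error only. SDs are over the 2 ChIP replicates. No test was run. The classification and pairing were also run on simulated lists with known classes and shifts.

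The isolated regions and the comparisons were chosen with earlier results of these data known. Named regions follow a rule: the 5 highest scores, 5 widest, 5 most isolated, 5 widest in neither replicate and the highest score of each arm. It also took the 5 largest and 3 smallest score differences between replicates among one-to-one pairs. Further, it took 2 regions on each side of each limit, those past the width limit having gaps of at least 10 kb. Others are marked as chosen after their values were seen. The surrounding coverage, runs and windows were added after the lists had been examined. Calculations used Python 3.11.15, numpy 2.4.6, pandas 2.3.3, scipy 1.17.1 and matplotlib 3.10.9.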

Additional observations from a re-analysis of the deposited data

How the results depend on the processing

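Alternatives changed the limits of the rule, the score range, the overlap that counts as shared and the replicates used. Of the 63 values, 33 were counted as unchanged. Shares, boundary differences and densities were judged by their interval, and the other values by their spread, except the number of regions, which had no interval. Its 484 regions with a width limit of 15 kb and 455 with gaps only to regions that a replicate held were counted as unchanged. The matching densities, given below, lay outside their interval of 3.80 to 4.63 per Mb. With a width limit of 5 kb there were 263 isolated regions (2.72 per Mb), of which both replicates held 71.9%, with a median replicate score of 0.915, a width of 3071 bp and a score difference from closely spaced regions of 0.0204 in place of -0.0320. With 15 kb the density was 5.01 per Mb, the score 1.24 and the width 5026.8 bp. A gap of 5 kb gave 636 regions (6.58 per Mb) and one of 20 kb gave 212 (2.19 per Mb). Gaps measured only to regions that a replicate held gave 4.71 per Mb and a score of 1.12 (1.117 against 1.127). The 140 regions above the autosomal median score (1.45 per Mb) were held by both replicates in 99.3%, with a score of 1.59, a width of 5908 bp, boundaries differing by 69.5 bp and a score difference of -0.00178. The 266 at or below it (2.75 per Mb) gave 72.6%, 0.878, 3195 bp and 0.0424. Reciprocal overlap of 50 percent gave a score of 1.15, and matching width classes a difference of 0.00156. Leaving out a replicate gave scores of 1.12 to 1.13, widths of 4095.5 to 4364 bp and differences of -0.0487 to -0.0153. With 2 replicates, each value lies within the SD of their mean by arithmetic. These values could therefore only be counted as unchanged and do not show stability. The numbers, widths and scores move by construction when the rule or the score range changes. The small score difference between isolated and closely spaced regions changed sign in 3 of these settings; it was never tested and its cause was not tested. No paired analysis was possible because the files used here held values of the ChIP samples and none of the input samples. Unknown depth limits what a region missing from a replicate can show.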

Other observations

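The combined list and the replicate lists were drawn on different grids. All 4311 combined regions start and end at even positions (100% of starts and 100% of ends), while in replicate 1 51.0% of starts and 49.1% of ends are even, and in replicate 2 49.6% and 49.9%. The narrowest region is 1001 bp in the combined list, 1301 bp in replicate 1 and 1302 bp in replicate 2. All 9 isolated regions narrower than 1301 bp were in neither replicate, and 17 of the 26 isolated regions in neither replicate were at least that wide.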
